A study of Nothobranchius furzeri with 9 samples.

Results

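The genes described here encode subunits of the Polycomb repressive complexes and the enzymes that remove methyl groups from lysine 27 of histone H3 (H3K27), followed through skeletal muscle of the turquoise killifish Nothobranchius furzeri at 3 ages. Members were the entries of the expression table named EZH1, EZH2, SUZ12, EED, JARID2, CBX2, CBX7, KDM6A or KDM6B, also with a final A or B, and entries that share a name were treated separately. This gave 12 of the 39396 entries: EZH1, EZH2, SUZ12, SUZ12B, JARID2 (2 entries), CBX2 (3 entries), CBX7A, KDM6B and KDM6BB. No entry was matched to EED or KDM6A, which are not analysed here. The study asked how chromatin marks and the transcriptome of muscle change during aging, and the 3 groups were young (5 weeks), adult (20 weeks) and old (35 weeks) fish, with 3 libraries each. The libraries of each age came from 3 fish, and whole muscle was taken from fasted animals at one fixed hour of the morning. All were males of 1 laboratory strain, and the sources name no treatment or genetic change in any group. Whole tissue holds fibres together with satellite, connective tissue, vessel, nerve and blood cells.

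Polycomb repressive complex 2 (PRC2) writes H3K27 methylation, a mark of silenced genes. Either EZH1 or EZH2 is its catalytic subunit, SUZ12 and EED hold the complex together, and JARID2 is an accessory subunit that helps recruit it and tune its activity. In mammals EZH2 is abundant in dividing progenitor cells, including satellite cells, and EZH1 prevails in cells that no longer divide, such as muscle fibres. PRC1 reads the mark through CBX proteins, among them CBX2 and CBX7, and ubiquitinates histone H2A. KDM6A and KDM6B demethylate H3K27 and so oppose PRC2. Teleost fish carry additional copies of many of these genes, hence names such as SUZ12B, CBX7A and KDM6BB.

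The deposited table holds integers that were read here as normalized counts, that is, reads of a gene divided by a size factor of the library; this reading rests on regular gaps between the values and on the use of DESeq by the authors. On that reading the spacing between values put the reads on genes at 7.96 to 14.23 M per library, with the fewest in old replicate 3. Log2 values, with 1 added to each normalized count, were fitted with limma over the 9 libraries together. Tests covered the 17454 entries whose mean over the 9 libraries reached 5, among them 11 of the 12 member entries. The CBX2 entry 139719 was at 0 in all 9 libraries. An entry was called when its Benjamini-Hochberg adjusted p, taken over all tested entries, was at most 0.05 and its log2 fold change was at least 1 in either direction. "Rose" and "fell" refer to called changes only. Fold changes are on the scale of the log2 values with 1 added, which understates changes of entries with few reads. Muscle fibre markers such as TTN and CKM summed to 3425946 to 3686453 normalized counts at 5 weeks, 2774640 to 4844134 at 20 weeks and 3877744 to 5150233 at 35 weeks. The lowest sum was that of adult replicate 2. Most of the sum was TTN in every library, and not every fibre entry, CKMB among them, was lowest in adult replicate 2. In adult versus young muscle 1 of 18 tested entries of that list was called (0 in the other comparisons, and ACTA1 was not matched). Fibroblast markers summed to 91422 to 115680 at 5 weeks, 31965 to 67744 at 20 weeks and 25840 to 67915 at 35 weeks, and 2 of 6 tested entries fell in adults and 3 in old fish. Nearly all of this sum was collagen (COL1A1 and COL1A2), while PDGFRA had 410 to 538 in young and 648 to 753 in adult libraries. Nerve and Schwann cell markers summed to 996 to 1953, 757 to 1257 and 855 to 1005 at the 3 ages, with 4 of 7 tested entries lower in adults and 3 in old fish, and the neurofilament entry NEFLA had 35 to 119 in young and 1 to 3 in all other libraries. Of the adipocyte list only LPL was matched (1 of 4 genes), while PLIN1, ADIPOQ and FABP4 were not. The LPL entries summed to 848 to 1191, 1869 to 2987 and 1313 to 1377, and LPL alone cannot stand for the number of adipocytes. Endothelium markers (4 of 6 genes matched) summed to 443 to 559, 635 to 817 and 536 to 739. Of their 5 tested entries 1 rose in adults. Erythrocyte markers (2 of 6 genes matched) summed to 789 to 994, 639 to 698 and 651 to 817. Of their 3 tested entries 1 fell in old fish. The part of these cells in the results was not tested.

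In adult versus young muscle 5 of the 11 tested entries were called: EZH1, CBX7A and KDM6BB rose, and EZH2 and SUZ12 fell. Over all tested entries 22.1% were called in this comparison, 10.7% higher and 11.4% lower in adults. In old versus young muscle EZH1 and CBX7A were higher and EZH2 was lower, 3 of 11 entries, where 17.7% of all tested entries were called (7.91% higher, 9.84% lower in old fish). Between adult and old muscle SUZ12 alone was called, higher in old fish, against 2.09% of all entries (0.825% higher, 1.26% lower in old fish). Without the fold limit 8, 5 and 1 member entries passed, beside 33.4%, 27.1% and 2.65% of all entries. The values of one age lay entirely apart from those of the other for 7, 6 and 1 member entries in these comparisons, with 50.2%, 42% and 21% of all tested entries. Across the 3 ages together, the F test of limma passed the adjusted p limit for 7 of the 11 entries and for 35.4% of all tested entries. The median log2 fold change of the member entries was 0.17, 0.03 and -0.11, and that of all tested entries 0.00, -0.03 and -0.01. Adult and old fish were both set against the same young libraries, so the first 2 comparisons are not independent. Since 3 against 3 libraries cannot give an exact permutation p under 0.1, calls of single entries rest on variances shared across genes.

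**Figure D1:**
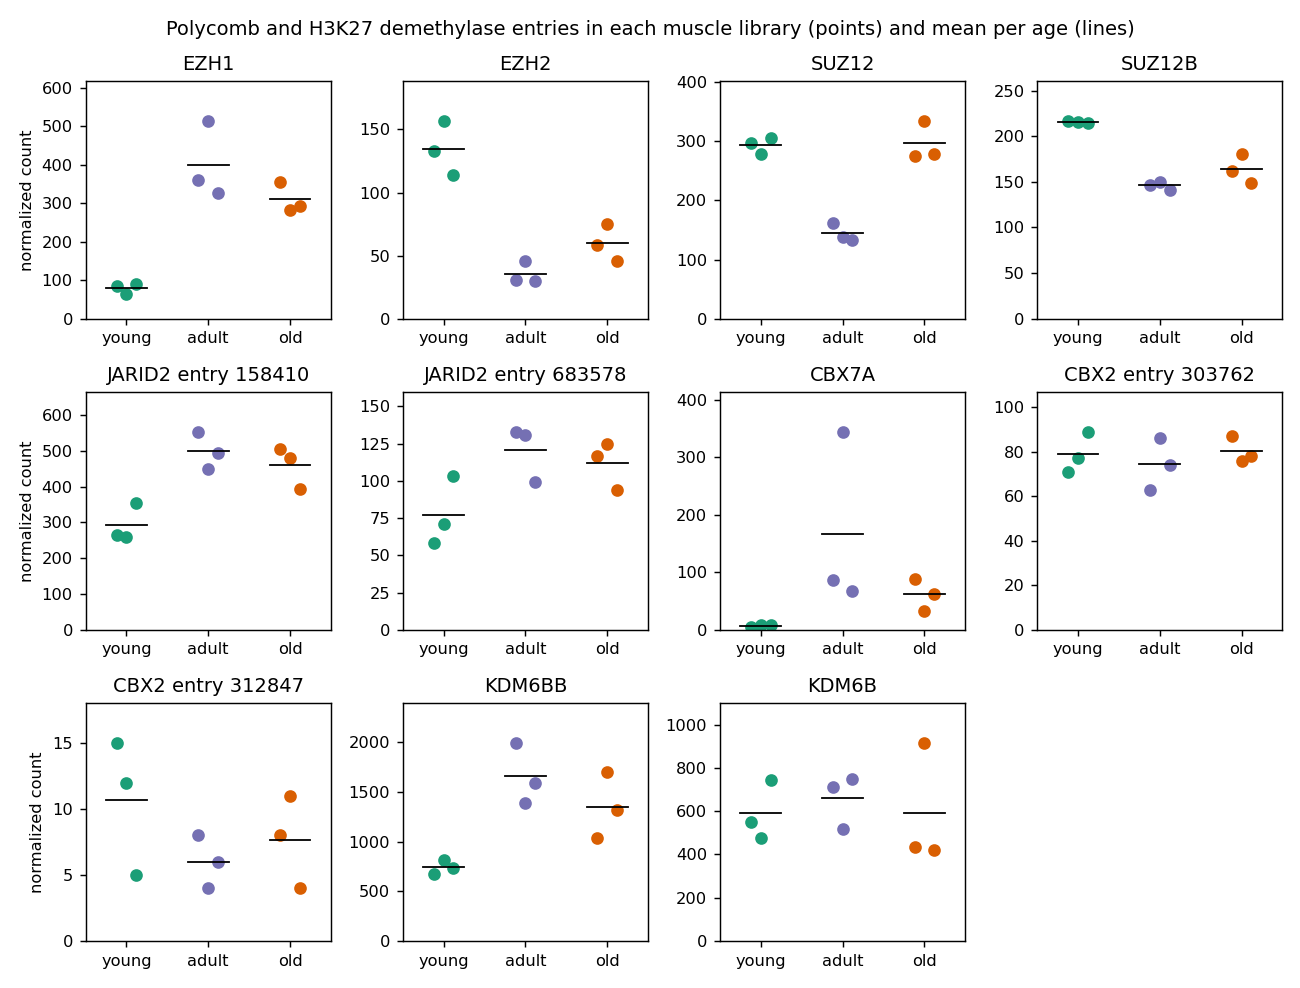
Normalized counts (vertical axis, linear, from 0) of the 11 tested member entries in each library (points; replicates 1 to 3 from left to right) by age, with the mean of 3 libraries as a line. EZH1 lies between 64 and 90 in young and at 282 or more in all other libraries, while EZH2 lies above 110 in young libraries only.

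The catalytic subunits of PRC2 moved in opposite directions. EZH1 had normalized counts of 86, 64 and 90 at 5 weeks, 359, 514 and 326 at 20 weeks and 354, 282 and 292 at 35 weeks. Its means were 80 ± 14, 399.7 ± 100 and 309.3 ± 39 (SD, n = 3 each). All adult and old libraries were thus well above all young ones, and adult and old values overlapped. EZH1 rose 4.9-fold in adults (2.29 log2 with a standard error of 0.21, adjusted p = 5.03e-05) and 3.85-fold at 35 weeks (1.95, standard error 0.21, adjusted p = 0.000203, limma). From adult to old fish the difference was -0.35 log2 with a 95% interval of -0.81 to 0.11, and no change was called (adjusted p = 0.373, limma). Of all member entries it had the smallest p of the F test (adjusted p = 9.52e-05, limma).

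EZH2 had normalized counts of 133, 157 and 114 at 5 weeks, 31, 46 and 30 at 20 weeks and 58, 75 and 46 at 35 weeks. The lowest young value was above every adult and old value, and old replicate 3 had the same 46 as adult replicate 2. It fell 3.74-fold in adults (-1.90 log2 with a standard error of 0.25, adjusted p = 0.000282) and 2.26-fold at 35 weeks (-1.18, standard error 0.25, adjusted p = 0.00596, limma). The mean of old fish, 59.7 ± 14.6, lay between those of adult (35.7 ± 8.96) and young fish (134.7 ± 21.5, SD, n = 3 each). The difference of 0.73 log2 between old and adult muscle missed the threshold (95% interval 0.18 to 1.27, adjusted p = 0.134, limma). By quantitative RT-PCR, the paper reported that ezh1, ezh2 and eed mRNA were higher in old than in young muscle. For EZH1 that is the direction found here, and for EZH2 it is the opposite one. EED had no entry here and could not be compared. The old fish of the paper covered a range of ages, and its RT-PCR values were normalized to the gene ira. The 2 measurements thus differ in samples and in scaling. The reason for the difference in EZH2 was not tested. In whole tissue, fewer cells of a type and less RNA per cell cannot be told apart. Markers of proliferating cells were summed as well. Of a list of 14 genes that includes TOP2A and MCM2, 12 were matched to 14 entries, and MKI67 and CCNA2 were not matched. Their summed normalized count was 2753 to 3003 at 5 weeks, 965 to 1122 at 20 weeks and 1081 to 1127 at 35 weeks. Of 13 tested entries 11 fell in adults and 11 in old fish, and 0 were called between old and adult muscle. TOP2A, a topoisomerase of dividing cells, had 518, 399 and 316 in young but 34 to 94 in the other libraries, while PCNA, a sliding clamp of DNA replication, had 100 to 123 in young and 106 to 178 in the others. The part of these markers in the result was not tested.

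The subunits were also compared within each library, as the ratio of their normalized counts with 1 added to each. The ratio was formed after the values of both entries had been seen, and it compares counts that are not corrected for gene length. EZH1 over EZH2 was 0.649, 0.411 and 0.791 at 5 weeks, 11.2, 11 and 10.5 at 20 weeks and 6.02, 3.72 and 6.23 at 35 weeks. The 3 ages did not overlap, with the order young, old, adult. In log2 the ratio was -0.75 ± 0.48 at 5 weeks, 3.45 ± 0.05 at 20 weeks and 2.38 ± 0.42 at 35 weeks (SD, n = 3 each). It was 18.3 times as high in adult as in young and 8.71 times as high in old as in young fish, and 2.1 times as high in adult as in old fish. Each of these differences had an exact two-sided permutation p of 0.1, the smallest that 3 against 3 libraries allow. EZH1 and EZH2 each lay apart from the young libraries, in opposite directions. The separation of the ratio from young fish and its p were thus fixed in advance and add no evidence.

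**Figure D2:**
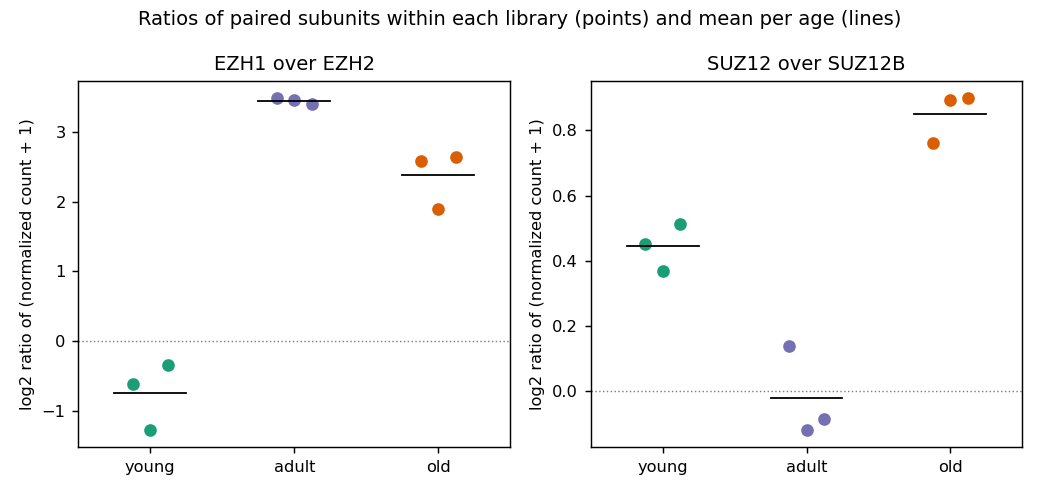
Log2 ratio of normalized counts, with 1 added to each, within each library (points; replicates 1 to 3 from left to right) by age, with the mean of 3 libraries as a line; left, EZH1 over EZH2, and right, SUZ12 over SUZ12B. The 3 ages do not overlap in either panel, and the adult libraries are highest in the left and lowest in the right panel. Both ratios were formed after the values had been seen. In the left panel the separation from young libraries follows from the values of EZH1 and EZH2. In the right panel the separation of all 3 ages follows from the values of SUZ12 and SUZ12B.

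SUZ12, the scaffold subunit that PRC2 needs for activity, was lower in adults than at both other ages. Its normalized counts were 297, 278 and 306 at 5 weeks, 162, 138 and 133 at 20 weeks and 275, 335 and 279 at 35 weeks. Young and old values overlapped and all adult values lay below them. SUZ12 fell 2.03-fold from young to adult fish (-1.02 log2 with a standard error of 0.16, adjusted p = 0.000678) and was 2.05-fold higher in old than in adult fish (1.03, standard error 0.16, adjusted p = 0.00846, limma). Between old and young fish the difference was 0.01 log2, with a 95% interval of -0.33 to 0.35 (adjusted p = 0.974, limma). Both changes lay close to the 2-fold limit. The call in adults was lost without young replicate 3 (-0.99), adult replicate 2 (-0.99) or adult replicate 3 (-0.97), at adjusted p of 0.00489 at most. The call between old and adult fish was lost without adult replicate 3 (0.98) or old replicate 2 (0.94), with equal library totals (0.87), with equal totals without the 20 most abundant entries (0.95), with quantile normalization (0.997) and with the 2 ages alone in the fit (1.03, adjusted p = 0.0567, limma). The summed normalized count of satellite cell and myoblast markers (8 entries of PAX7, PAX3, MYF5, MYOD1 and MYOG) was 1484 to 1627 in young, 714 to 1065 in adult and 1379 to 2033 in old libraries. MYOD1 and MYOG, factors of myogenic commitment and differentiation, carried most of this: MYOD1 had 925 to 1074, 278 to 572 and 731 to 1120, and MYOG 227 to 258, 87 to 130 and 197 to 376. PAX7 and MYF5, markers of satellite cells and early myoblasts, had 57 to 64 and 185 to 258 in young but 36 to 82 and 186 to 254 in adult libraries, so that these ages overlapped. PAX3B entry 507096 took the other direction, with 42 to 48 in young, 55 to 111 in adult and 81 to 169 in old libraries. The other PAX3 entries had at most 31. Of 6 tested entries 2 fell in adults, and 2 were higher in old than in adult fish. The part of these markers in the result was not tested.

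The second copy, SUZ12B, had normalized counts of 217, 215 and 214 at 5 weeks, 147, 150 and 141 at 20 weeks and 162, 180 and 149 at 35 weeks. Every adult and old value was below every young one. The difference of adults from young fish was -0.56 log2 (standard error 0.15, adjusted p = 0.0139), under the fold limit, and that of old fish -0.40 log2 (standard error 0.15, adjusted p = 0.0672, limma). From adult to old fish it was 0.16 log2, with a 95% interval of -0.17 to 0.49 (adjusted p = 0.575, limma). Within libraries, with 1 added to each value, SUZ12 over SUZ12B was 1.29 to 1.43 at 5 weeks, 0.921 to 1.1 at 20 weeks and 1.69 to 1.87 at 35 weeks, so that the ages did not overlap. The ratio of the copies was 1.83 times as high in old as in adult fish (exact two-sided permutation p = 0.1, the smallest possible). This ratio too was formed after the values had been seen. Its separation of the ages and its p followed from the ranges of SUZ12 and SUZ12B at each age and add no evidence. Reads that matched both copies were left out by the authors, so the counts of each copy are uncertain; this holds for all entries that share a name.

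JARID2 was represented by 2 entries. Entry 158410 had normalized counts of 264, 260 and 353 at 5 weeks, 553, 450 and 493 at 20 weeks and 504, 480 and 393 at 35 weeks. All adult and old values were above the young ones. The difference reached 0.78 log2 in adults (standard error 0.17, adjusted p = 0.00558) and 0.66 log2 for old fish (standard error 0.17, adjusted p = 0.0169, limma), both under the 2-fold limit. Entry 683578 had fewer reads, with 58, 71 and 103 at 5 weeks, 133, 131 and 99 at 20 weeks and 117, 125 and 94 at 35 weeks. Young replicate 3 overlapped with both other ages. Its differences from young fish had similar sizes, 0.67 log2 in adults (standard error 0.24, adjusted p = 0.0483) and 0.56 log2 for old fish (standard error 0.24, adjusted p = 0.0998, limma). Between old and adult fish the entries differed by -0.12 and -0.11 log2, with 95% intervals of -0.50 to 0.26 and -0.63 to 0.41.

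Among the chromodomain proteins of PRC1, CBX7A changed more than any other member entry in both comparisons with young muscle. In mammals CBX7 reads H3K27me3 and is found in stem and differentiated cells. The entry had 4, 9 and 8 normalized counts at 5 weeks, 87, 344 and 68 at 20 weeks and 89, 33 and 62 at 35 weeks. It was thus near the lower limit of detection in young fish, and adult replicate 2 stood far above the other adult libraries. CBX7A rose by 4.06 log2 in adult muscle (16.7-fold, standard error 0.56, adjusted p = 0.000388), and the change in old muscle was 2.91 log2 (7.54-fold, standard error 0.56, adjusted p = 0.00362, limma). Without adult replicate 2 the change in adults was 3.35 log2 (adjusted p = 0.000912, limma). Old and adult fish differed by -1.15 log2 with a wide 95% interval of -2.38 to 0.08 (adjusted p = 0.274, limma). Adult replicate 2 also had the highest summed normalized count of leukocyte markers, 1235, where the other adult libraries had 479 and 735, young libraries 259 to 391 and old libraries 427 to 477. In this list 6 of 8 genes were matched to 9 entries, 3 of which rose in adults and 1 in old fish. In adult replicate 2 CD74A made up 379 of the sum, against 39 to 92 in the other libraries. Leukocyte markers were not the only ones that set this library apart. It also had the lowest adult sums of fibre, fibroblast, and satellite cell and myoblast markers. Among adults its sums were the highest for endothelium, nerve and Schwann cells, erythrocytes and LPL. For proliferating cells its sum lay between those of the other adults. The part of these markers in the result was not tested.

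CBX2, the PRC1 subunit linked in mammals to compaction of chromatin, showed no called change. Entry 303762 had 71, 77 and 89 normalized counts at 5 weeks, 63, 86 and 74 at 20 weeks and 87, 76 and 78 at 35 weeks. The ages overlapped throughout, and the differences were -0.09 log2 in adults (95% interval -0.51 to 0.33) and 0.03 log2 in old fish (-0.39 to 0.45) versus young ones. The intervals exclude a 2-fold change of this entry. Entry 312847 had only 4 to 15 normalized counts per library. Its intervals versus young fish were -1.79 to 0.47 log2 in adults and -1.53 to 0.72 log2 in old fish. Both end below a 2-fold rise, but they do not exclude a 2-fold fall. At this depth a 2-fold fall of that entry could be neither shown nor excluded. By quantitative RT-PCR, the paper reported for PRC1 members, cbx2, cbx7 and cbx8 copies among them, a trend similar to that of PRC2 subunits. Here CBX2 showed no called change, while CBX7A rose in old fish. CBX8B, described below, differed by 0.98 log2 in old versus young fish (adjusted p = 0.0522, limma). Which copies those primers matched was not examined, and the reason for the difference in CBX2 was not tested.

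Of the H3K27 demethylases, KDM6BB rose in adult muscle and KDM6B did not pass the test. KDM6BB had 676, 812 and 733 normalized counts at 5 weeks, 1995, 1393 and 1590 at 20 weeks and 1040, 1701 and 1320 at 35 weeks. All values of adult and old fish were above all young values. In adults it rose 2.22-fold (log2 fold change 1.15, standard error 0.20, adjusted p = 0.00133, limma), which became 0.98 log2 with quantile normalization and then missed the fold limit. In old fish the difference was 0.85 log2 (standard error 0.20, adjusted p = 0.0097, limma), under the fold limit, and it reached 1.02 log2 without old replicate 1. Old and adult fish differed by -0.31 log2 (95% interval -0.74 to 0.13). By quantitative RT-PCR, the paper reported lower kdm6a and kdm6b mRNA in adult than in young muscle, and detected no change in older fish. The adults of the paper covered a range of ages. KDM6BB took the other direction here in adults. KDM6B, described below, was not called in adults (0.17 log2), and KDM6A had no entry. Which copy the kdm6b primers of the paper matched was not examined, and the reason for the difference was not tested.

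KDM6B had 550, 474 and 745 normalized counts at 5 weeks, 713, 518 and 747 at 20 weeks and 435, 916 and 420 at 35 weeks. Old replicate 2 was the highest and the other old libraries the lowest of all, and the ages overlapped. The log2 differences were 0.17 in adults (95% interval -0.47 to 0.80, adjusted p = 0.69) and -0.07 in old fish (-0.71 to 0.56, adjusted p = 0.879, limma) versus young ones. KDM6AL, a name outside the rule that was looked up after the values of the members had been seen, had 2 entries. Entry 735100 had at most 2 normalized counts. Entry 293714 had 137, 174 and 142 at 5 weeks, 162, 187 and 160 at 20 weeks and 189, 161 and 131 at 35 weeks. Its differences were 0.17, 0.08 and -0.09 log2 for adult versus young, old versus young and old versus adult fish, with 95% intervals inside -0.50 to 0.58.

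**Figure D3:**
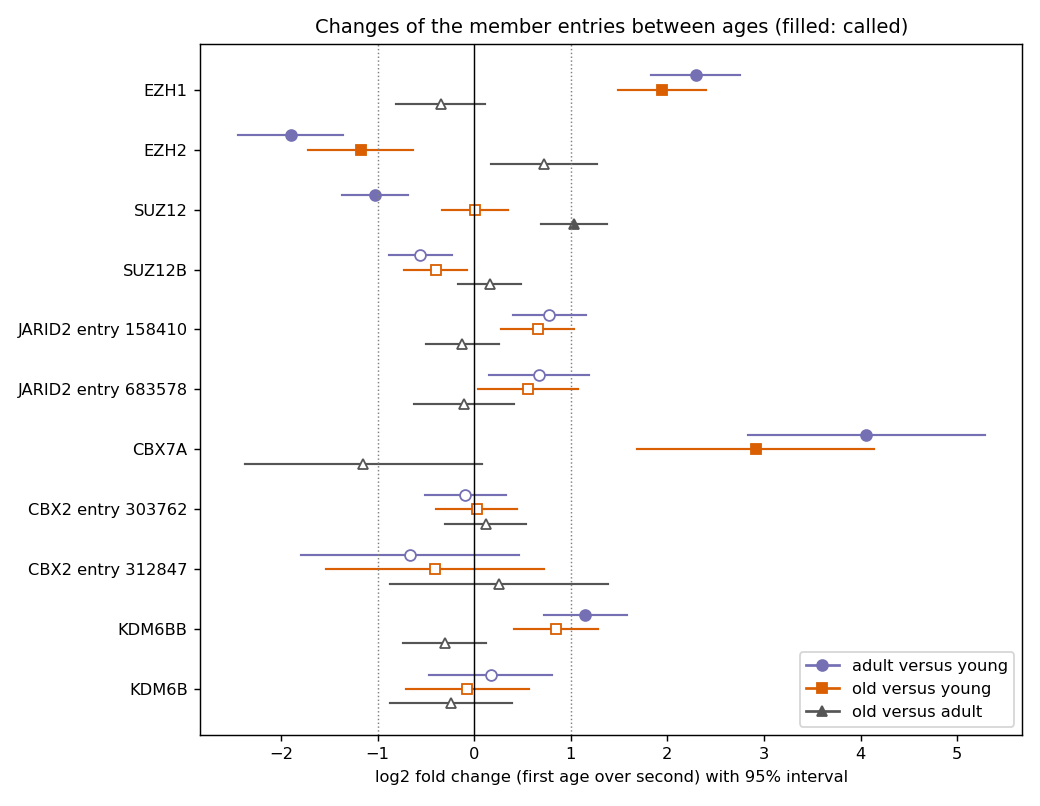
Log2 fold change (horizontal axis) of the 11 tested member entries in the 3 comparisons, with 95% intervals from limma as lines; filled symbols are called and dotted lines mark the 2-fold limits. EZH1 and CBX7A lie on the right and EZH2 on the left in both comparisons with young muscle, and SUZ12 is the only entry with a filled symbol between old and adult muscle.

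The other genes of the Polycomb system were taken from a list by function. Of its names 56 entries were found, 51 of them were tested, and 13 were called in at least 1 comparison, against 28.5% of all tested entries. In adult versus young muscle 6 rose and 6 fell (23.5% of the 51; 22.1% of all entries), and in old versus young muscle 3 rose and 3 fell (11.8%; 17.7% of all entries). Between old and adult muscle 1 was higher and 1 lower in old fish (3.92%; 2.09% of all entries). The median log2 fold changes were -0.14, -0.02 and 0.20. These counts and medians include PHF19 and KDM2B entry 933690, which passed the filter only through the age at which they were high.

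Among accessory subunits of PRC2, AEBP2 was lower at the later ages, as EZH2 was. AEBP2, a zinc finger protein that stabilizes PRC2, had 40, 44 and 40 normalized counts at 5 weeks, 8, 10 and 13 at 20 weeks and 8, 15 and 7 at 35 weeks. It fell by 1.92 log2 in adult muscle (adjusted p = 0.00161), and the change in old muscle was -2.01 log2 (adjusted p = 0.00193, limma). PHF19, a Polycomb-like protein that guides PRC2 to chromatin, had 12, 17 and 13 at 5 weeks, 3, 2 and 2 at 20 weeks and 8, 3 and 3 at 35 weeks. It reached the mean of 5 needed for testing only through the young libraries, so its values are given without a test. Its relative PHF1 had 5, 6 and 12 at 5 weeks, 16, 16 and 21 at 20 weeks and 6, 4 and 6 at 35 weeks. The rise of 1.18 log2 in adults (adjusted p = 0.0451, limma) was lost without young replicate 1 or 2 or without any single adult replicate, at adjusted p of 0.0854 to 0.14. It was also lost with replicate numbers as a block (0.0521), with either scaling to totals (0.0844 and 0.0652), with no filter on low values (0.0881) and, by size, with 5 added to each value (0.87 log2). Together 3 of 7 tested entries of PRC2 partners were called in adults (22.1% of all entries) and 2 in old fish (17.7% of all entries), PHF19 included in both.

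Among 21 tested entries of the PRC1 core, 2 rose and 3 fell in adults (23.8%; 22.1% of all entries), and 1 rose in old fish (4.76%; 17.7% of all entries). The PCGF proteins define which PRC1 variant is formed. PCGF5A had 61, 49 and 52 normalized counts at 5 weeks, 135, 190 and 103 at 20 weeks and 141, 120 and 218 at 35 weeks. It rose by 1.35 log2 in adult muscle (adjusted p = 0.00309), and the change in old muscle was 1.51 log2 (adjusted p = 0.00242, limma). PCGF1 took the other direction, with 24, 16 and 25 at 5 weeks, 6, 6 and 5 at 20 weeks and 14, 14 and 9 at 35 weeks (log2 fold change -1.74 in adults, adjusted p = 0.00309, limma). CBX8B, another chromodomain subunit, had 15, 15 and 28 at 5 weeks, 44, 85 and 67 at 20 weeks and 37, 28 and 51 at 35 weeks, and rose by 1.72 log2 in adults (adjusted p = 0.00307, limma). SCML4 fell from 18, 40 and 28 in young to 8, 2 and 5 in adult libraries (-2.38 log2, adjusted p = 0.0132, limma), and this call was lost without young replicate 2 (adjusted p = 0.0595) or adult replicate 2 (adjusted p = 0.0526).

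In variant PRC1 complexes MGA, a MAX partner of the PCGF6 complex, had 154, 229 and 169 normalized counts at 5 weeks, 66, 48 and 69 at 20 weeks and 78, 78 and 65 at 35 weeks. It fell by 1.57 log2 in adult muscle (adjusted p = 0.000378), and the change in old muscle was -1.29 log2 (adjusted p = 0.00177, limma). A second copy, MGAA, had means of 534.3, 452 and 604.3 at the 3 ages and was not called. KDM2B, which brings PRC1 to CpG islands, had 3 entries. Entry 203396 rose from 13, 6 and 4 in young to 31, 104 and 48 in adult libraries (2.80 log2, adjusted p = 0.00201) and 52, 30 and 19 in old ones (2.02 log2, adjusted p = 0.0146, limma). Without adult replicate 2 the change in adults was 2.33 log2. The call in old fish was lost without young replicate 2, young replicate 3 or old replicate 1 (adjusted p of 0.0509, 0.0627 and 0.0573). Entry 933690 had 3, 1 and 1 at 5 weeks, 11, 11 and 10 at 20 weeks and 10, 1 and 1 at 35 weeks. It too reached a mean of 5 only through the group where it was high, the adults, and is given without a test. The KDM2B entry with the most reads, 739710, had 180 to 189 at 5 weeks, 125 to 164 at 20 weeks and 172 to 201 at 35 weeks and was not called.

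AUTS2, a partner of PCGF5 in neurons of the mouse, was higher in old fish than at both other ages. Entry 15186 had 322, 203 and 344 normalized counts at 5 weeks, 325, 192 and 273 at 20 weeks and 584, 629 and 677 at 35 weeks. The old values lay apart from all others. It was higher in old fish by 1.15 log2 versus young (adjusted p = 0.00474) and by 1.29 log2 versus adult fish (adjusted p = 0.0204, limma). The first call was lost without young replicate 2 (0.92), with equal library totals (0.88) and with equal totals without the 20 most abundant entries (0.96). The second was lost without adult replicate 2, adult replicate 3 or old replicate 3 (adjusted p of 0.0781, 0.0736 and 0.0526) and with the 2 ages alone (0.0536). In the PR-DUB complex, which removes ubiquitin from H2A, ASXL2 peaked in adults, with 103, 99 and 104 at 5 weeks, 197, 278 and 216 at 20 weeks and 146, 97 and 90 at 35 weeks. It rose by 1.15 log2 in adults (adjusted p = 0.002) and was lower by 1.06 log2 in old than in adult fish (adjusted p = 0.0267, limma). The latter call was lost without adult replicate 2 or 3 or old replicate 2 or 3 (adjusted p of 0.0605 to 0.117), with the 2 ages alone (0.107) and with replicate numbers as a block (0.0548).

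**Figure D4:**
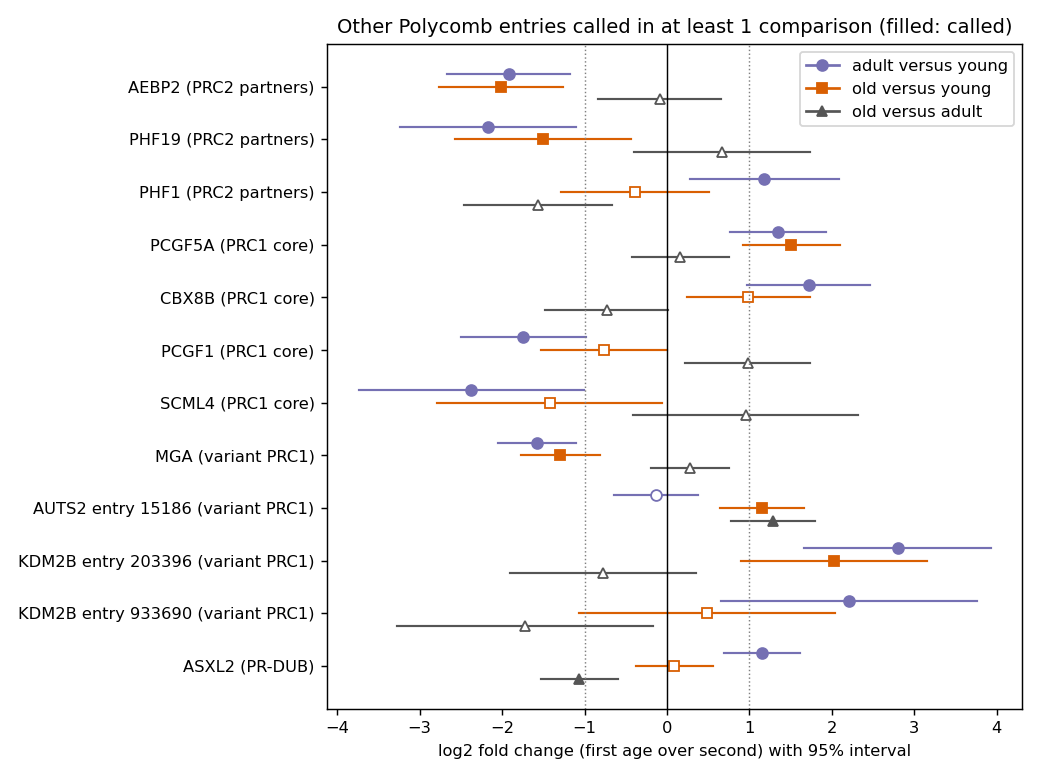
Log2 fold change (horizontal axis) of 12 other Polycomb entries called in at least 1 comparison, with 95% intervals from limma as lines; filled symbols are called and dotted lines mark the 2-fold limits. AEBP2 and MGA lie on the left and PCGF5A and KDM2B entry 203396 on the right in both comparisons with young muscle. PHF19 and KDM2B entry 933690 reached the mean of 5 needed for testing only through the age at which they were high. Their intervals and filled symbols are drawn but are not read as tests.

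The entries most like EZH1 over the 9 libraries were sought by the Pearson correlation of log2 values among tested entries with a gene name, as a description only, since all 3 ages enter it. They were AKAP13 (0.995), an anchoring protein of protein kinase A, ZBTB16A (0.992), a zinc finger transcription factor, and PDE1B (0.989), a phosphodiesterase. ZBTB16A had 84, 68 and 88 normalized counts at 5 weeks, 283, 334 and 252 at 20 weeks and 212, 202 and 215 at 35 weeks. AKAP13 spanned 501 to 603 at 5 weeks, 1006 to 1260 at 20 weeks and 933 to 1146 at 35 weeks. In these entries, as in EZH1, adult replicate 2 was the highest library.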

How the data were processed

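RNA of whole skeletal muscle was sequenced from 9 fish, 3 per age, as stranded total RNA libraries. The authors trimmed reads with Trimmomatic 0.33, aligned them to the killifish genome NotFur1 with STAR 2.4.2a and counted reads per gene with featureCounts 1.4.5-p1, leaving out reads of several genes or positions. The deposited values were taken as a signal, read counts scaled by 1 size factor per library and rounded, from gaps in the values, so no count model was run. No positions or sequences are given, since no genome of that build was used here. Depth was estimated from the spacing of the values.

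Groups were taken from the sample titles. Values were analysed as log2(value + 1) in R 4.3.3 with limma 3.58.1 (eBayes with trend, 1 mean per age, all 9 libraries in 1 fit), with the thresholds of the paper and Benjamini-Hochberg adjustment over 17454 tested entries. Gene names were matched exactly, with a final A or B allowed. The members and lists were chosen with earlier results of these data known. All member entries are named; of the other Polycomb entries, up to 12 called ones with the smallest F-test p; and the 3 entries most correlated with the member of smallest p. The extraction protocol in the labels names 3 fish per age, and p-values measure the spread between these libraries. Same-numbered libraries did not deviate together (correlations of -0.079 to 0.106 over 9 pairs).

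Marker lists were matched in the same way and summed per library. Alternatives were scaling (recomputed median ratios, equal totals, equal totals without the 20 most abundant entries, quantiles), filters (none, mean of at least 50), added constants of 0.5 and 5, robust moderation, no fold limit, the 2 ages of a comparison alone, replicate blocks and omission of each library.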

Additional observations from a re-analysis of the deposited data

How the results depend on the processing

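The calls of EZH1, EZH2 and CBX7A against young muscle held in each of 20 alternative fits. Without a fold limit 8 member entries passed in adult versus young and 5 in old versus young muscle, and 22 of the other Polycomb entries in at least 1 comparison. For old versus adult muscle, 0 member entries were called with equal totals, equal totals without the 20 most abundant entries, quantile normalization or the 2 ages alone. With a mean of at least 50, 4 other Polycomb entries were called, as fewer entries were tested. When single libraries were left out, 4 to 5, 3 to 4 and 0 to 1 member entries were called in the 3 comparisons, 5 to 7 passed the F test, and 9 to 14 other Polycomb entries were called.

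Equal totals moved the median of all entries to -0.29 log2 in old versus young, -0.12 for adult against young and -0.17 for old against adult muscle, and the share of higher calls in old versus young muscle from 44.6% to 23.5% (29.3% without the 20 most abundant entries). Among the entries named here, signs turned only for differences that were not called. With equal totals the old versus young values were -0.245 for CBX2 entry 303762, -0.267 for SUZ12 and -0.197 for KDM6AL, and the old versus adult values -0.041 for that CBX2 entry and -0.002 for SUZ12B. Equal totals without the 20 most abundant entries gave -0.159, -0.18 and -0.11 for the first group, and quantile normalization -0.079 for SUZ12. Leaving out single libraries gave ranges of -0.201 to 0.02, -0.045 to 0.116 and 0.007 to 0.229 for CBX2 entry 303762 in the 3 comparisons, -0.02 to 0.611 for CBX2 entry 312847 and -0.245 to 0.012 for JARID2 entry 683578 in old versus adult, -0.437 to 0.124 for KDM6B and -0.083 to 0.059 for SUZ12 in old versus young muscle. For KDM6AL they were -0.048 to 0.215 for the old against the young and -0.219 to 0.043 for the old against the adult libraries. The cause was not tested.

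With replicate numbers as a block 5, 3 and 1 member entries were called, as without it, 6 passed the F test and 12 other Polycomb entries were called; 2 of 9 libraries correlated best with their own number, so the numbers were not taken as a pairing. The old versus adult comparison rested on few libraries: over all entries 364 were called, but 90 without adult replicate 2 and 91 without adult replicate 3. Entries with few reads, such as CBX2 entry 312847, PHF1, PHF19 and KDM2B entry 933690, are limited by depth.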
